A study of Mus musculus with 65 samples.

Results

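The change in nascent transcription during the second hour of Mtg16 degradation was read from 5 PRO-seq libraries of MEL cells, a mouse erythroleukemia line, out of 65 in the series. They were chosen by library name as 2 libraries of degrader for 2 h against 3 libraries of degrader for 1 h. In PRO-seq, a run-on reaction in nuclei adds a biotinylated nucleotide to the RNA held by each engaged polymerase, and reads count RNA as it is made. All cells carried Mtg16 (gene Cbfa2t3) fused to an FKBP tag and 2 HA tags (labelled Mtg16-FKBP-2XHA), and the degrader was dTAGV1 at 250 nM, which directs FKBP-tagged proteins to the proteasome. The other groups of the time course were DMSO and degrader for 15 min and 30 min (3 libraries each), and washout after degrader (2 or 3 libraries for each of 3 washout times, fewer in the gene table). No label says that the replicates came from separate cultures, so the tests measure the spread between these libraries. The line is described in the labels only by its tag and cell type, and how many clones it comprised is not given in the sources used here.

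Mtg16, also called ETO2, is a corepressor that does not bind DNA itself. In red cell precursors it joins complexes built around the DNA-binding factors Tal1 and Gata1 and recruits NCoR corepressors and histone deacetylases. It is known for holding erythroid and megakaryocytic genes down until differentiation, and the tag allows the protein to be removed faster than most secondary effects unfold. The comparison asks which nascent transcription still moved after the early response to its loss, the change in the second hour alone.

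Titles and treatment labels of these 5 libraries say A485, which blocks the p300 and CBP acetyltransferases, while their library names say dTAGV1, and the library names were followed. The 1218 genes that A485 lowered at least 2-fold after 1 h in a separate experiment (called the A485 series) had medians of 0.17 at 2 h and 0.16 at 1 h of the time course on the log2 scale against DMSO. The 579 genes raised by 1 h of degrader in the A485 series had medians of 0.67 at 2 h and 0.79 at 1 h. Depth was 58.1 and 47.1 (in units of 1e6 recovered gene reads) at 2 h and 35.2, 41.3 and 53.6 at 1 h. The tables of dREG sites, transcribed regulatory elements called from run-on data, held 6.87 and 5.21 at 2 h and 4.44, 5.04 and 6.56 at 1 h in the same unit. Of 9 erythroid marker genes 8 were in the table, and their summed level was 41160 to 42210 at 2 h and 44110 to 45710 at 1 h. Markers of other cell types were lower (B cell 33.4 to 52.2 at 2 h and 33.0 to 51.0 at 1 h, fibroblast 2.78 to 10.3 at 2 h and 6.78 to 9.07 at 1 h, endothelial, from Pecam1 alone, 128 to 147 at 2 h and 136 to 186 at 1 h), except for granulocyte and macrophage markers (4476 to 4589 at 2 h and 4462 to 4744 at 1 h), mostly Spi1, a factor long known to be active in this line. Levels are DESeq2-normalised read counts, and every difference is on the log2(value + 1) scale as 2 h minus 1 h.

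Changes in the second hour were small in normalised counts. The gene libraries were centred alike, with median log2 deviations of 0.0042 to 0.0068 at 1 h and 0.0069 and 0.0076 at 2 h. A change shared by all genes may therefore not show. Over 12720 genes, the quartiles of the log2 differences were -0.11 and 0.09, and the 5th and 95th percentiles were -0.42 and 0.26. At least 2-fold differences were seen at 4 genes that were higher at 2 h and 36 that were lower. Against DMSO, 342 genes were at least 2-fold higher at 1 h and 25 at least 2-fold lower. At 23307 dREG sites the 5th and 95th percentiles were -0.64 and 0.51, with 74 sites at least 2-fold higher and 247 at least 2-fold lower at 2 h.

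With limma fitted to all groups of the time course (19 gene libraries and 22 site libraries), 0 genes and 0 sites passed an adjusted p of 0.05 (Benjamini-Hochberg), a background of 0%. At an unadjusted p under 0.05 there were 792 genes (365 higher, 427 lower) and 1765 sites (821 higher, 944 lower). On recovered whole reads, edgeR called 0 genes and 0 sites (848 and 2072 at an unadjusted p under 0.05), and DESeq2 called 9 genes and 13 sites. The median SD within a group was 0.05 at 2 h, 0.07 at 1 h, 0.16 at 15 min and 0.20 at 30 min, where leaving out replicate 2 and replicate 3 brought it to 0.07 and 0.04. It was 0.09 in DMSO and 0.08 and 0.05 in the 30 min and 2 h washout groups.

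Those 2 libraries and replicate 3 of the 30 min washout (used at sites only) stood apart from their own groups. Without these 3 libraries the differences stayed as they were, since they come from the same 5 libraries, and the median standard error (SE) of a gene was 0.08, against 0.14 with them. Then 500 genes (3.93%) were higher and 434 (3.41%) lower at 2 h, and 97 sites (0.416%) were higher and 83 (0.356%) lower. Of these 934 genes 933 also passed when limma was fitted to the 5 libraries alone, which called 1867 genes. Both fits take each difference from the same 5 libraries, so the direction is shared by construction. The overlap is not independent support for the calls. Values of the 2 groups did not overlap at 23.7% of genes in the higher direction and 20.7% in the lower direction.

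The calls without the 3 libraries rest on few libraries. Leaving out 2 h replicate 2 left 183 genes and 5 sites, and leaving out 1 h replicate 3, 2 h replicate 1 or 1 h replicate 1 left 350, 361 or 435 genes. For sites, leaving out 1 h replicate 1, 2 or 3 left 26, 91 or 102. Across 12720 genes, the deviation of 15 min replicate 2 from the other 15 min libraries correlated with the 2 h minus 1 h difference at r = 0.45, and that of 30 min replicate 3 at r = 0.29. The other DMSO, 15 min and 30 min libraries were between -0.12 and 0.17. Genes are not independent replicates and the correlations are descriptive. The 3 libraries were chosen from earlier results of these data, and leaving them out lowered the SE. Deviations of 2 of them correlated with the difference tested, so adjusted p without the 3 libraries may be too small. Below, a gene is said to have passed only where its adjusted p was under 0.05 without the 3 libraries, and none of those named passed with them.

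**Figure D1:**
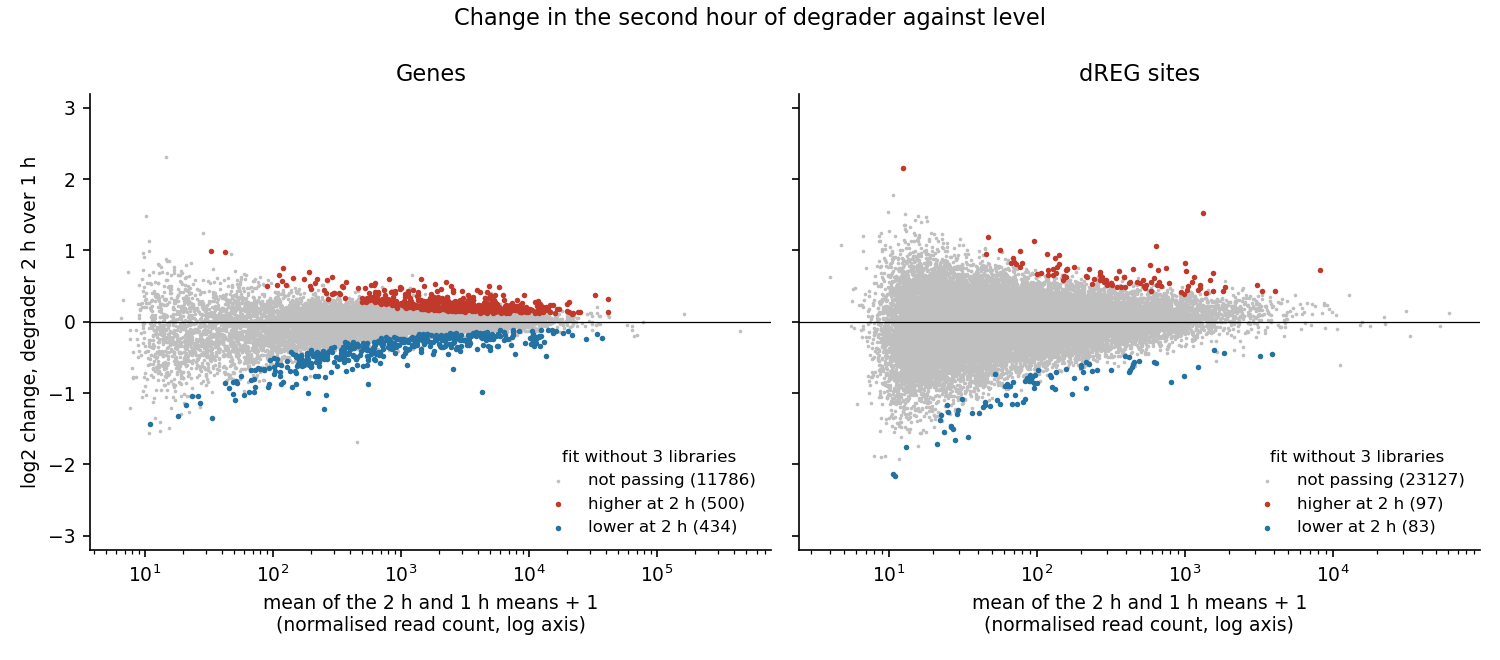
Each point is a gene (left) or a dREG site (right): the horizontal log axis is the mean of the 2 h and 1 h means plus 1, in normalised read counts, and the vertical axis the log2 difference of 2 h over 1 h of degrader. Red and blue points passed in the fit without the 3 libraries (500 and 434 genes, 97 and 83 sites); in the fit of all groups 0 passed. Red genes lie mostly above 1000 counts, and blue genes reach lower levels.

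Cbfa2t3, the gene of Mtg16, had 175800 and 163200 counts at 2 h, against 156650, 159400 and 153640 at 1 h, and 23814 ± 4797 in DMSO (SD, n = 3). Both 2 h libraries were above the 1 h libraries by a margin that did not pass (0.11 ± 0.10, SE, limma adjusted p = 0.535). Earlier in the course it had 58870, 150640 and 48876 counts at 15 min and 112140, 108200 and 164980 at 30 min, so that 15 min replicate 2 and 30 min replicate 3 were near the later levels. With those 2 libraries in the limma fit 0 genes passed, and without them 934 did, so the gene calls depend on leaving them out. Why they stand apart was not tested.

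Several genes that were higher at 1 h than in DMSO were lower again at 2 h. The 2 h minus 1 h and 1 h minus DMSO differences share the 1 h libraries, so their values are only set side by side. Gata1, the central red cell transcription factor, had 4884 and 5085 counts at 2 h, against 6349, 5971 and 6587 at 1 h, with 2809 ± 122 in DMSO (SD, n = 3). It was lower by 0.34 ± 0.06 (SE) and passed (limma adjusted p = 0.00273), with both 2 h libraries still above every DMSO library. Gfi1b, a repressor needed for red cell and platelet formation, had 11989 and 11580 at 2 h, against 14205, 13905 and 15155 at 1 h and 4708 ± 287 in DMSO (SD, n = 3). Its difference was -0.29 ± 0.07 (SE, adjusted p = 0.0133). Alas2, the enzyme that opens heme synthesis in red cells, had 1788 in each 2 h library, against 2244, 2228 and 2356 at 1 h, a difference of -0.35 ± 0.07 (SE, adjusted p = 0.00293). Its DMSO level was 574 ± 34.1 (SD, n = 3), below every 2 h value. Gata1 had 3166 in 30 min replicate 3, against 4944 and 5094 in the others of that group. Gfi1b had 7421 there, against 11839 and 12146, and Alas2 1195, against 1804 and 1909. In 15 min replicate 2 none of these genes was below both others of that group. With all libraries in the limma fit, adjusted p was 0.778 for Gata1, 0.822 for Gfi1b and 0.752 for Alas2.

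Other erythroid genes went the other way or did not pass. Car1, the carbonic anhydrase of red cells, had 35945 and 37795 counts at 2 h, against 28950, 29016 and 27345 at 1 h and 17228 ± 759 in DMSO (SD, n = 3). It was higher by 0.37 ± 0.04 (SE, adjusted p = 3.55e-05), with no overlap. Car1 had 32984 in 15 min replicate 2 and 31151 in 30 min replicate 3, against 22812 to 26758 in the others of their groups. Bcam, the Lutheran blood group protein, had 108 and 65.1 at 2 h, against 155, 139 and 160 at 1 h (-0.84 ± 0.18, SE, adjusted p = 0.00749). Of 45 erythroid and heme genes tested, 3 passed as higher (Car1, Ermap and Alad), 6 as lower (among them Alas2, Bcam, Fech, Epb41 and Mgst3) and 36 did not pass, with a median of 0.00 beside 0.01 over all genes. The shares are 6.67% higher and 13.3% lower, beside 3.93% and 3.41% of all genes. In bulk libraries, fewer cells of a type and less nascent RNA per cell cannot be told apart. Among 41 blood transcription factors 2 were higher (Lmo2 and Nfe2l2) and 2 lower (Gata1 and Gfi1b), 4.88% in each direction and near the shares of all genes, median 0.03. Nfe2, a factor of late red cells and platelets, had 1282 and 1278 at 2 h, against 1444, 1394 and 1334 at 1 h, and did not pass (adjusted p = 0.276). Cebpb, a myeloid factor, had 257 and 224 at 2 h, against 194, 171 and 180 at 1 h, just short of the threshold (adjusted p = 0.0508).

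**Figure D2:**
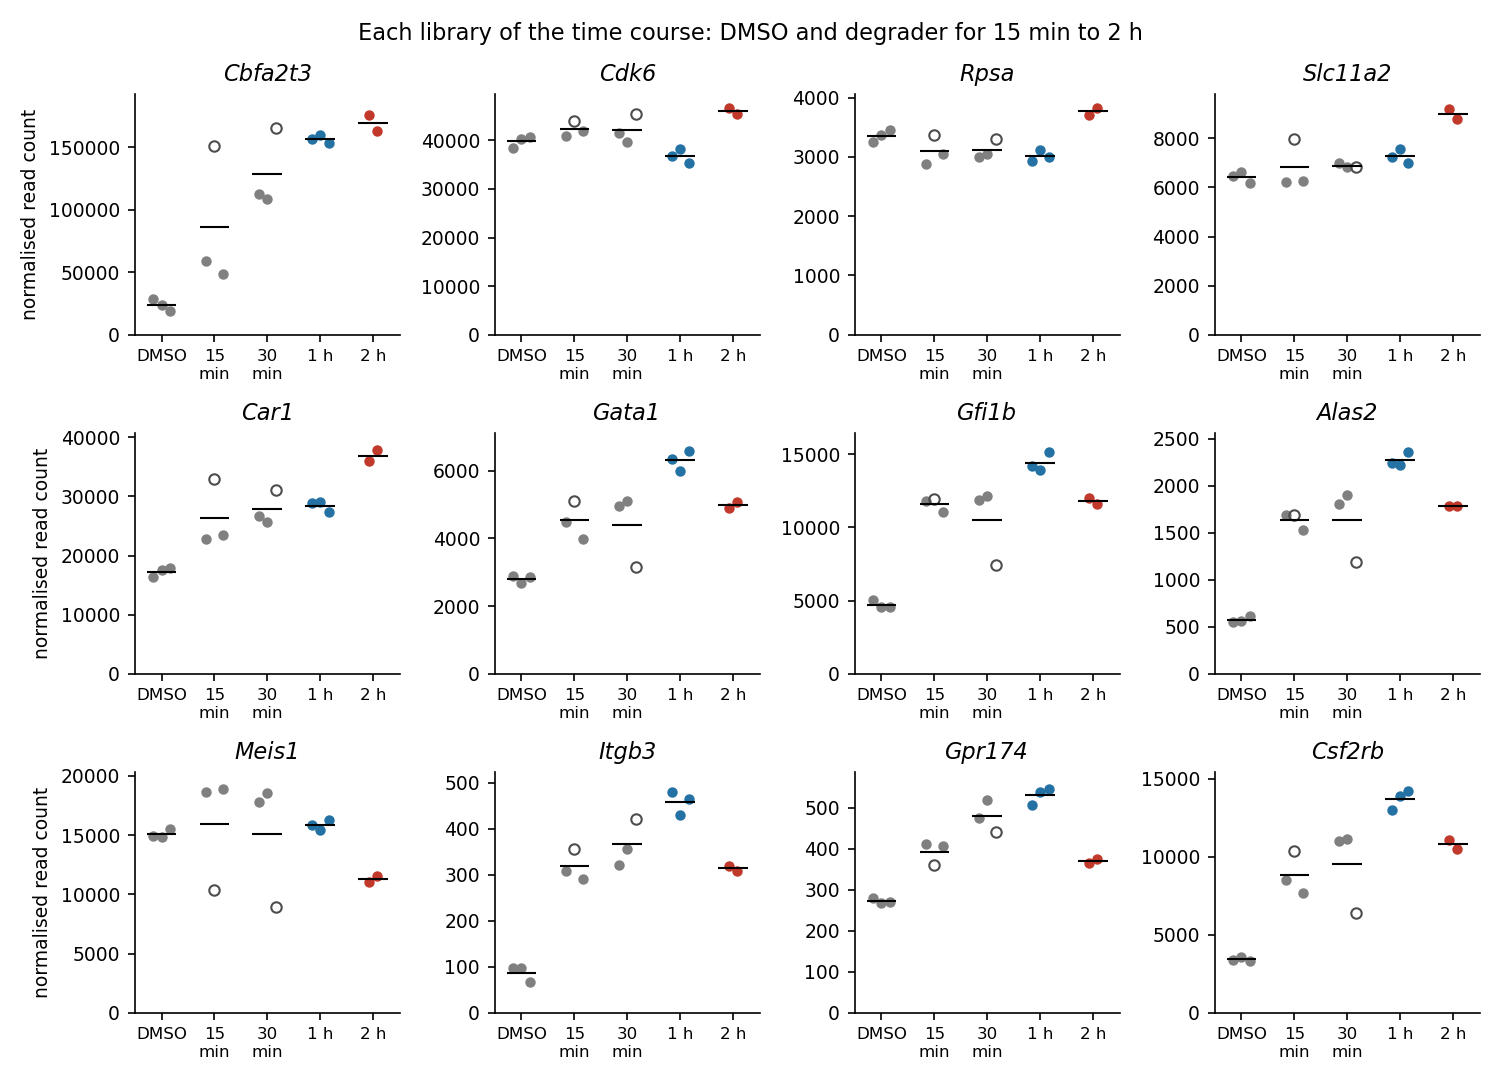
Normalised read counts (vertical axis, from 0) of 12 genes in each library of DMSO and of degrader for 15 min, 30 min, 1 h (blue) and 2 h (red), with bars at the group means and open circles for 15 min replicate 2 and 30 min replicate 3. The 2 h libraries of Gata1, Gfi1b and Alas2 lie below their 1 h libraries and above DMSO, those of Car1 and Slc11a2 above both, and Meis1 is below DMSO at 2 h.

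Of 21 megakaryocyte and platelet genes 4 passed as lower (Itgb3, F2rl2, Rab27b and Meis1), 0 as higher and 17 not at all, with a median of -0.04. The lower calls are 19% of the list, beside 3.41% of all genes, and 3.93% of all genes were higher. Itgb3, the platelet integrin beta chain, had 318 and 309 counts at 2 h, against 479, 430 and 465 at 1 h (-0.54 ± 0.15, SE, adjusted p = 0.0321). F2rl2, a thrombin receptor, had 308 and 345 at 2 h, against 419, 454 and 474 at 1 h (-0.46 ± 0.13, SE, adjusted p = 0.0365). Itgb3 and F2rl2 remained above their DMSO means of 86.5 and 123. Meis1, a homeobox factor of stem cells and megakaryocytes, had 11032 and 11541 at 2 h, against 15822, 15391 and 16254 at 1 h, and 15111 ± 380 in DMSO (SD, n = 3). It passed at -0.49 ± 0.06 (SE, adjusted p = 3.71e-05), and both 2 h libraries were below DMSO. Meis1 had 18613, 10355 and 18899 at 15 min and 17790, 18516 and 8903 at 30 min, with the libraries that stand apart low, as the plot of counts by library shows.

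Cytokine signalling genes were split. Csf2rb, the shared beta chain of the GM-CSF, IL-3 and IL-5 receptors, had 11075 and 10519 counts at 2 h, against 12989, 13882 and 14180 at 1 h and 3420 ± 117 in DMSO (SD, n = 3). It passed at -0.34 ± 0.05 (SE, adjusted p = 0.000291). In 30 min replicate 3 Csf2rb had 6394, against 11025 and 11160 in the others of that group. It had 10362 in 15 min replicate 2, against 8528 and 7664. Of 35 JAK-STAT and cytokine feedback genes 5 were lower (Csf2rb, Csf2rb2, Cish, Pim1 and Bcl2l1) and 2 higher (Stat5a and Pim3), median -0.01. The shares are 5.71% higher and 14.3% lower, beside 3.93% and 3.41% of all genes. Stat5a, the transcription factor downstream of the erythropoietin receptor, had 3012 and 2741 at 2 h, against 2386, 2475 and 2306 at 1 h (0.27 ± 0.05, SE, adjusted p = 0.00221). Bcl2l1, the survival factor Bcl-xL, had 2001 and 1948 at 2 h, against 2304, 2290 and 2349 at 1 h (-0.23 ± 0.06, SE, adjusted p = 0.0293). Pim3, a survival kinase, was higher by 0.32 ± 0.10 (SE, adjusted p = 0.0475).

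Of 28 granulocyte and macrophage genes 3 were lower (Csf2rb, Anxa2 and Vim) and 0 higher, median -0.11, a share of 10.7% lower beside 3.41% of all genes. Vim, an intermediate filament gene, had 342 and 383 at 2 h, against 470, 554 and 549 at 1 h and 1161 ± 20.1 in DMSO (SD, n = 3). Unlike the receptors it was already below DMSO at 1 h and lower again at 2 h (-0.53 ± 0.09, SE, adjusted p = 0.000847). Among 39 NF-kB and interferon genes 4 were lower and 0 higher, median -0.07, a share of 10.3% lower beside 3.41%. Tnfaip8, an apoptosis regulator, had 9669 and 9662 at 2 h, against 11309, 11392 and 11652 at 1 h (-0.24 ± 0.03, SE, adjusted p = 0.000291). Slfn5 and Mx2, interferon-inducible genes, were lower by 0.61 and 0.52 (adjusted p = 0.00566 and 0.0487). The lists in this paragraph hold many genes with few reads, and low genes as a whole were shifted down, as described further on.

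Of 20 genes of iron handling 14 did not pass, 6 were higher and 0 lower (Slc11a2, Steap3, Erfe, Slc40a1, Slc48a1 and Tfr2), with a median of 0.11. The higher calls are 30.0% of the list, beside 3.93% of all genes. Slc11a2, the iron importer DMT1, had 9208 and 8792 counts at 2 h, against 7258, 7556 and 7008 at 1 h and 6433 ± 215 in DMSO (SD, n = 3), a difference of 0.31 ± 0.04 (SE, adjusted p = 0.000207). Steap3, the ferric reductase that works beside it, had 6304 and 6031 at 2 h, against 4869, 4878 and 4588 at 1 h (0.37 ± 0.08, SE, adjusted p = 0.0108). Erfe, the red cell hormone that lowers hepcidin, had 557 and 506 at 2 h, against 335 to 430 at 1 h (0.47 ± 0.10, SE, adjusted p = 0.00664). Erfe had 489 in 15 min replicate 2 and 686 in 30 min replicate 3, against 308 to 411 in the others of their groups. Steap3 had 5547 and 3466 there, against 4190 to 5031. Tfr2, an iron sensor that pairs with the erythropoietin receptor, was higher by 0.21 ± 0.06 (SE, adjusted p = 0.0297). In each of these genes both 2 h libraries were above every 1 h library.

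Of 51 cell cycle and DNA replication genes 11 passed as higher, 0 as lower and 40 not at all, 48 had a positive difference, and the median was 0.11. The higher calls are 21.6% of the list, beside 3.93% of all genes. Over its DMSO mean the list's median was 0.05 and 0.03 in the 2 h libraries, against -0.07, -0.02 and -0.10 in the 1 h libraries, and it was 0.04 in 15 min replicate 2 and 0.20 in 30 min replicate 3. Cdk6, a kinase that drives entry into S phase, had 46707 and 45395 counts at 2 h, against 36856, 38289 and 35373 at 1 h and 39849 ± 1174 in DMSO (SD, n = 3). The difference was 0.32 ± 0.04 (SE, adjusted p = 2.57e-05), and Cdk6 also had the smallest p among higher genes in the fit of all groups (adjusted p = 0.398). Cdc20, an activator of the anaphase-promoting complex, had 597 and 563 at 2 h, against 471, 458 and 476 at 1 h (0.31 ± 0.08, SE, adjusted p = 0.025). Rbl1, the retinoblastoma relative p107, was higher by 0.19 ± 0.04 (SE, adjusted p = 0.0114), and Ccne1, cyclin E1, by 0.20 ± 0.06 without passing (SE, adjusted p = 0.0514). The clamp protein gene Pcna and the helicase gene Mcm4, also in this list, passed at 0.48 and 0.26.

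Of 56 Myc targets and ribosome biogenesis genes 8 passed as higher and 0 as lower, 52 had a positive difference, and the median was 0.15. The higher calls are 14.3% of the list, beside 3.93% of all genes. This list, the iron and cell cycle lists and the ribosomal protein genes had higher median levels than genes as a whole. Genes at high levels were more often called higher, as described further on. Over its DMSO mean the list's median was 0.17 in each 2 h library, against 0.07, 0.06 and -0.02 in the 1 h libraries, and it was 0.18 in 15 min replicate 2 and 0.34 in 30 min replicate 3, the libraries that stand apart. Nop56, a core protein of the particles that methylate ribosomal RNA, had 4043 and 4991 counts at 2 h, against 3185, 3449 and 3228 at 1 h (0.45 ± 0.09, SE, adjusted p = 0.00293). Wdr12, a factor of large-subunit assembly, had 4366 and 4441 at 2 h, against 3864, 3943 and 3675 at 1 h (0.20 ± 0.05, SE, adjusted p = 0.011). Gnl3, nucleostemin, was higher by 0.28 ± 0.06 (SE, adjusted p = 0.0108), and Polr1c, a subunit of RNA polymerases I and III, by 0.29 ± 0.08 (SE, adjusted p = 0.0378). Values of the groups did not overlap, in the higher direction, at 36 of these 56 genes and at 34 of the 51 cell cycle genes, beside 23.7% of all genes.

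The cytosolic ribosomal protein genes, a group chosen after their values were seen and given no test as a group, had the highest median of the gene groups described here. It was 0.27 over 74 genes, with 73 positive, 31 passing as higher and 0 as lower. The higher calls are 41.9% of the group, beside 3.93% of all genes, of which 6595 of 12720 were positive. Rpsa, a protein of the small subunit, had 3713 and 3827 counts at 2 h, against 2931, 3121 and 3004 at 1 h and 3359 ± 103 in DMSO (SD, n = 3), a difference of 0.32 ± 0.04 (SE, adjusted p = 0.000173). Rps12 had 1649 and 1890 at 2 h, against 1106, 1297 and 1371 at 1 h (0.49 ± 0.10, SE, adjusted p = 0.00445). Rpl37a had 2566 and 3232 at 2 h, against 1946, 2111 and 2059 at 1 h (0.50 ± 0.08, SE, adjusted p = 0.000847). The 2 h libraries differed among themselves here. The median of the 74 genes over their DMSO mean was 0.11 in 2 h replicate 1 and 0.34 in 2 h replicate 2, against -0.07, 0.02 and -0.12 at 1 h. It was also high in the libraries that stand apart, at 0.19 in 15 min replicate 2 and 0.28 in 30 min replicate 3. Without 2 h replicate 2 the median difference was 0.15.

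Of 28 heat shock genes 3 were higher and 1 lower (10.7% and 3.57%, beside 3.93% and 3.41% of all genes), median 0.07. Hspa8, the constitutive Hsp70 chaperone, had 2385 and 2982 counts at 2 h, against 1677, 2048 and 1749 at 1 h and 2259 ± 274 in DMSO (SD, n = 3), a difference of 0.55 ± 0.11 (SE, adjusted p = 0.00371). Dnajb1, an Hsp40 co-chaperone, was higher by 0.31 and Dnaja1, another, lower by 0.22 (adjusted p = 0.0251 and 0.0262). Of 34 unfolded protein and amino acid stress genes 2 were higher and 1 lower (5.88% and 2.94%), median 0.06. Calr, the calcium-binding chaperone calreticulin, had 4984 and 5888 at 2 h, against 4449, 4393 and 4085 at 1 h (0.33 ± 0.06, SE, adjusted p = 0.00212). Dnajb9, an endoplasmic reticulum co-chaperone, was higher by 0.51 and Atf6, a sensor of unfolded protein, lower by 0.17 (adjusted p = 0.0466 and 0.0178).

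Of 33 immediate early genes 3 were higher and 1 lower (9.09% and 3.03%, beside 3.93% and 3.41% of all genes), median 0.08. Fosl1, the AP-1 subunit Fra-1, had 242 and 229 at 2 h, against 135, 138 and 161 at 1 h (0.70 ± 0.12, SE, adjusted p = 0.00161). Its DMSO level was 190 ± 8.46 (SD, n = 3), so Fosl1 lay below DMSO at 1 h and above it at 2 h. In 30 min replicate 3 Fosl1 had 351, above both 2 h values, against 178 and 161 in the others of that group. It had 170 in 15 min replicate 2, between the others of that group (149 and 176). Zfp36l2, an RNA-decay factor, was higher by 0.30 ± 0.06 (SE, adjusted p = 0.00364), and Dusp2, a MAP kinase phosphatase, by 0.55 ± 0.16 (SE, adjusted p = 0.0414). Dusp2 had 400 in 15 min replicate 2 and 530 in 30 min replicate 3, against 167 to 304 in the others of their groups. Klf6, a Krüppel-like factor, had 134 and 142 at 2 h, against 219, 194 and 221 at 1 h and 393 ± 21.7 in DMSO (SD, n = 3), and passed at -0.61 ± 0.14 (SE, adjusted p = 0.0105).

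Of 37 hypoxia and glycolysis genes 2 were higher and 2 lower, 5.41% in each direction beside 3.93% and 3.41% of all genes, median 0.09. Tpi1, triosephosphate isomerase, had 324 and 362 at 2 h, against 253, 291 and 238 at 1 h (0.40 ± 0.11, SE, adjusted p = 0.0287), while Pfkp, a phosphofructokinase, was lower by 0.19 (adjusted p = 0.0252). Hk1, hexokinase 1, was higher by 0.22 (adjusted p = 0.00664). Of 34 cholesterol synthesis genes 0 were higher and 2 lower, among them Scd2, a fatty acid desaturase, median -0.02.

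Of 25 MTG family and corepressor genes 1 passed, a share of 4.0% beside the 3.93% of all genes that were higher. It was Tbl1xr1, a subunit of the NCoR complex, with 12420 and 12837 at 2 h, against 11715, 11715 and 11281 at 1 h (0.13 ± 0.03, SE, adjusted p = 0.0286). Sin3a, a scaffold of deacetylase complexes, was at 0.09, Gps2, another NCoR subunit, at 0.33 and Kdm1a, the demethylase LSD1, at 0.04, and none of these passed (adjusted p = 0.143, 0.168 and 0.547). Of 28 acetyltransferase and bromodomain genes 2 were higher and 3 lower (7.14% and 10.7%, beside 3.93% and 3.41% of all genes), median 0.02. Hdac5, a class IIa deacetylase, had 863 and 665 at 2 h, against 1066, 943 and 1072 at 1 h (-0.44 ± 0.10, SE, adjusted p = 0.0133), and Crebbp, which encodes CBP, was lower by 0.15 ± 0.04 (SE, adjusted p = 0.0418). Of 29 elongation control genes 0 passed in either direction, median 0.03, and the member with the smallest p in the fit of all groups, Nelfe of the pausing factor NELF, was at 0.19 ± 0.08 (SE, adjusted p = 0.17).

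The shares of the remaining lists stand beside 3.93% of all genes higher and 3.41% lower. Of 32 p53 targets and CDK inhibitors 1 was lower (3.12%), Ccng2, cyclin G2, at -0.70 (adjusted p = 0.0425), median -0.01. Of 18 stem and progenitor genes Meis1 was lower and Lmo2 higher (5.56% each), median 0.00, while Kit, the stem cell factor receptor, had 75.8 and 63.4 at 2 h, against 121, 98.7 and 103 at 1 h without passing (adjusted p = 0.0677). Of 7 genes in the list labelled cluster histone genes, which also holds histone genes outside the clusters such as H2ax, 0 passed, median 0.02. H2ax, a histone variant gene, had 1018 and 1434 at 2 h, against 895, 948 and 918 at 1 h (0.39 ± 0.16, SE, adjusted p = 0.136), and near-identical histone genes can share reads. Of 7 genes marking other lineages 1 was lower, Syp, a synaptic vesicle protein gene, at -0.40 ± 0.12 (SE, adjusted p = 0.045), median -0.21.

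The genes with the smallest p over the whole table, whether listed or not, were led by modest changes at well-transcribed genes on the higher side. Besides Cdk6, Rpsa, Rps12 and Calr they included Furin, Snhg12, Cmtm7, Zfp956 and Gm36470, with adjusted p between 0.398 and 0.591 in the fit of all groups. Furin, a protease that matures secreted proteins, had 2005 and 2029 counts at 2 h, against 1553, 1606 and 1691 at 1 h (0.32 ± 0.06, SE, adjusted p = 0.00284 without the 3 libraries). Cmtm7, a membrane protein gene, had 5809 and 5634 at 2 h, against 3989, 4215 and 3979 at 1 h and 5200 ± 215 in DMSO (SD, n = 3). It differed by 0.49 ± 0.05 (SE, adjusted p = 1.83e-05). Cmtm7 had 6164 in 15 min replicate 2 and 5348 in 30 min replicate 3, against 4252 to 4707 in the others of their groups. Snhg12, a host gene of small nucleolar RNAs, had 2028 and 2341 at 2 h, against 1536, 1586 and 1402 at 1 h (0.53 ± 0.09, SE, adjusted p = 0.00103). Zfp956, a zinc finger gene, was at 0.40 ± 0.07 and the unnamed transcript Gm36470 at 0.42 ± 0.04 (SE), and both passed.

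On the lower side the same rule gave Nectin4, Gpr174, Tnfaip8, Ggh, Apobr, Plxnb3, Ahnak, Zfp608, Snx24 and Stard9, several of them near the detection floor. Nectin4, a cell adhesion gene, had 22.9 and 13.7 counts at 2 h, against 52.2, 40.7 and 48.4 at 1 h (-1.35 ± 0.28, SE, adjusted p = 0.00541). Plxnb3, a semaphorin receptor, had 29.2 and 33.4 at 2 h, against 68.1, 66.8 and 68.2 at 1 h, close to its DMSO mean of 30.8 (-1.09 ± 0.26, SE, adjusted p = 0.0155). Apobr, a lipoprotein receptor gene, had 11.1 and 7.71 at 2 h, against 19.3, 31.9 and 24.2 at 1 h. At higher levels, Gpr174, a lysophosphatidylserine receptor, had 365 and 374 at 2 h, against 507, 538 and 546 at 1 h and 272 ± 6.15 in DMSO (SD, n = 3), and passed at -0.52 ± 0.09 (SE, adjusted p = 0.0013). Ahnak, a very large scaffold protein gene, had 984 and 945 at 2 h, against 1255, 1263 and 1286 at 1 h (-0.39 ± 0.06, SE, adjusted p = 0.000377). Snx24, a sorting nexin, had 548 and 546 at 2 h, against 820, 805 and 839 at 1 h and 878 ± 38.0 in DMSO (SD, n = 3), a difference of -0.59 ± 0.07 (SE, adjusted p = 2.57e-05). Zfp608, Stard9 and Ggh differed by -0.37, -0.60 and -0.92 (adjusted p = 0.00445, 0.00264 and 0.00462).

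A few further genes, chosen after their values were seen, had large differences among those that passed without overlap and with at least 100 counts. Elmo1, a regulator of Rac and cell movement, had 1761 and 1699 at 2 h, against 1222, 1138 and 1078 at 1 h and 1150 ± 106 in DMSO (SD, n = 3), a difference of 0.60 ± 0.07 (SE, adjusted p = 2.18e-05). Gml2, of the Ly6 family, had 954 and 1002 at 2 h, against 575, 678 and 689 at 1 h and 390 ± 36.5 in DMSO (SD, n = 3). St8sia4, a polysialyltransferase, had 375 and 412 at 2 h, against 791, 641 and 729 at 1 h (-0.87 ± 0.11, SE, adjusted p = 5.76e-05). Timd2, a ferritin receptor of the Tim family in mice, had 3282 and 2462 at 2 h, against 7728, 5303 and 4300 at 1 h, and its DMSO libraries varied widely too (3058 ± 1374, SD, n = 3). The transcript 9130008F23Rik had 170 and 171 at 2 h, against 368, 321 and 359 at 1 h (-1.03 ± 0.10, SE, adjusted p = 6.63e-06), and it was low in the libraries that stand apart (197 in 15 min replicate 2 and 84.0 in 30 min replicate 3). Elmo1 had 1496 and 1995 in those 2 libraries, against 947 to 1164 in the others of their groups, and St8sia4 had 396 and 283, against 765 to 933. Gml2 had 778 and 987 there, against 556 to 674. Cyp2b10, a cytochrome P450, had 188 and 106 at 2 h, against 288, 227 and 556 at 1 h, with 1 h replicate 3 far above the others.

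The A485 series, whose libraries are separate from these, gives lists of degrader-responsive genes that do not use the 5 libraries compared here. There, 579 of the genes tested here were raised at least 1.5-fold by 1 h of degrader (limma adjusted p under 0.05) and 175 were lowered as much. In the second hour of the time course the raised genes had a median of -0.15 and the lowered genes a median of 0.13, beside 0.01 over all genes. Of the raised genes 58 passed as lower and 14 as higher, shares of 10.0% and 2.42%, beside 3.41% and 3.93% of all genes. Of the lowered genes 17 passed as higher and 9 as lower (9.71% and 5.14%). Relative to the DMSO mean, the median raised gene was at 0.71 and 0.63 in the 2 h libraries, against 0.81, 0.76 and 0.79 in the 1 h libraries, so that the groups did not overlap and both stayed above DMSO. The median lowered gene was at -0.21 and 0.03 in the 2 h libraries, against -0.32, -0.24 and -0.30 in the 1 h libraries. Here 2 h replicate 2 alone reached the DMSO level. Without 2 h replicate 2 the medians were -0.09 for raised genes and 0.02 for lowered genes, and without 2 h replicate 1 the median of lowered genes was 0.22.

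**Figure D3:**
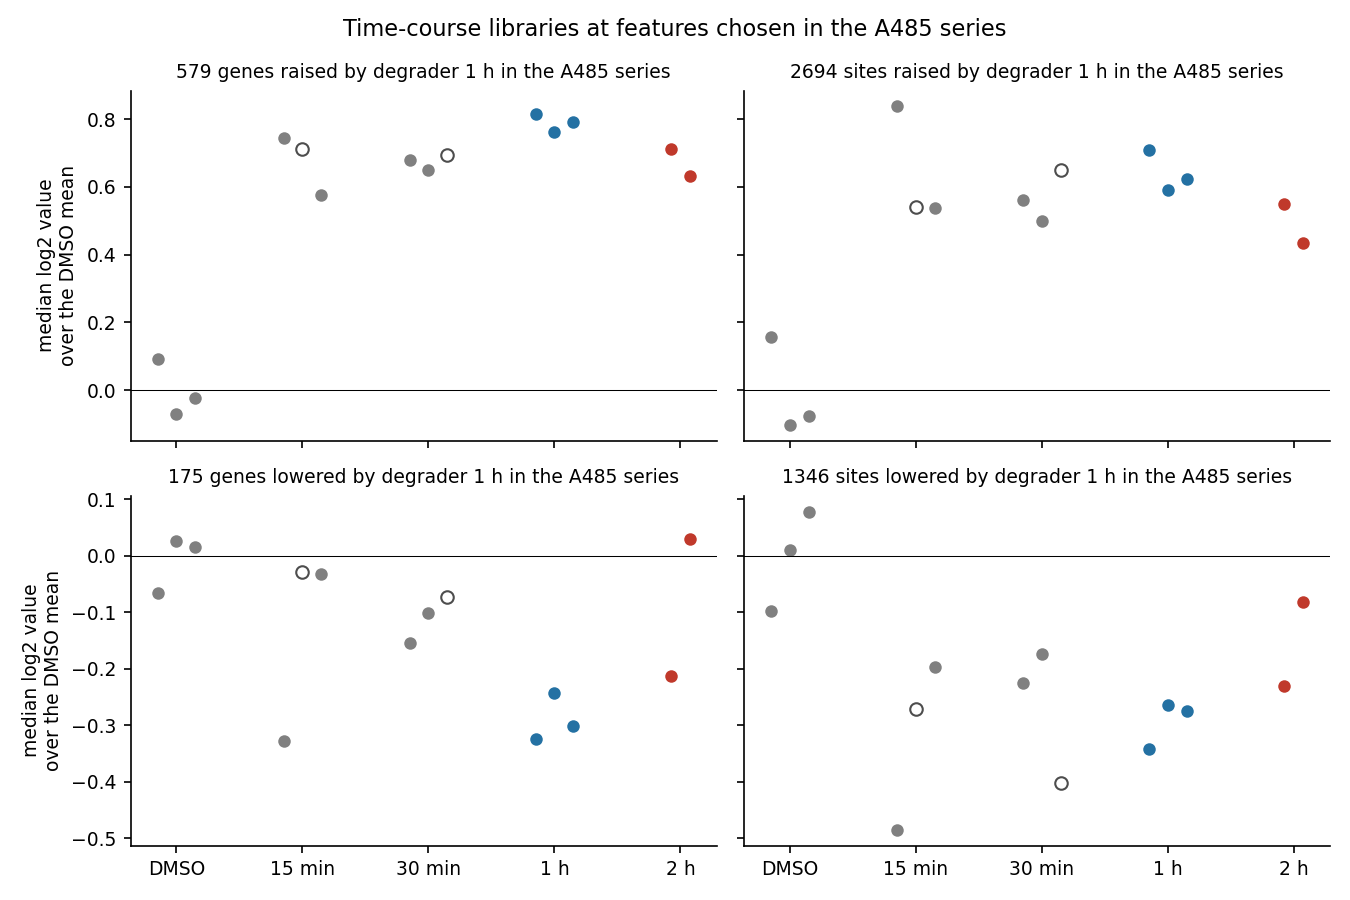
Points are libraries of DMSO and degrader for 15 min to 2 h. The vertical axis is the median log2 value over the DMSO mean for the genes (left) and sites (right) that 1 h of degrader raised (top) or lowered (bottom) in the A485 series. Blue is 1 h, red is 2 h, and open circles are 15 min replicate 2 and 30 min replicate 3. In the top panels both 2 h libraries lie below the 1 h libraries (0.71 and 0.63 against 0.76 to 0.81 for genes), and in the bottom panels the 2 h libraries are higher than the 1 h libraries.

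The strongest responders of the A485 series did not share a course in the second hour. Slc22a4, a carnitine and ergothioneine transporter, had 2461 and 2239 counts at 2 h, against 1846, 1856 and 1892 at 1 h and 314 ± 46.4 in DMSO (SD, n = 3), and passed as higher (0.33 ± 0.08, SE, adjusted p = 0.0179). It had 2244 in 15 min replicate 2 and 3477 in 30 min replicate 3, against 582 to 1185 in the others of their groups. Samd7, at 54.2 and 46.2 at 2 h, against 43.1, 43.6 and 53.5 at 1 h, overlapped between the groups. Atp1b1, a sodium pump subunit, had 89.0 and 94.2 at 2 h, against 129, 146 and 128 at 1 h, without passing (-0.55 ± 0.23, SE, adjusted p = 0.163). Gm35202 (-0.38), Spaca9 (-0.56), 4921513I03Rik (-0.27), Gm41043 (0.00) and Gm13842 (0.59) did not pass either. Of the 5 genes with the largest decreases there, H2bc22, H2bc4 and H2bc21, histone H2B genes, were at -0.10, -0.09 and -0.40, Ftl1, the ferritin light chain, at 0.18 and A630066F11Rik at 0.21, and none passed.

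Genes called in the second hour can also be read in the A485 series. The 434 lower genes had a median of 0.09 after 1 h of degrader there, with 66.1% above 0, beside 49.8% of all 12497 genes tested in both experiments. The 500 higher genes had a median of -0.03, with 43.2% above 0. Thus 13.4% of the lower genes and 2.8% of the higher genes were among those raised at least 1.5-fold in that series, beside 4.63% of all genes.

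**Figure D4:**
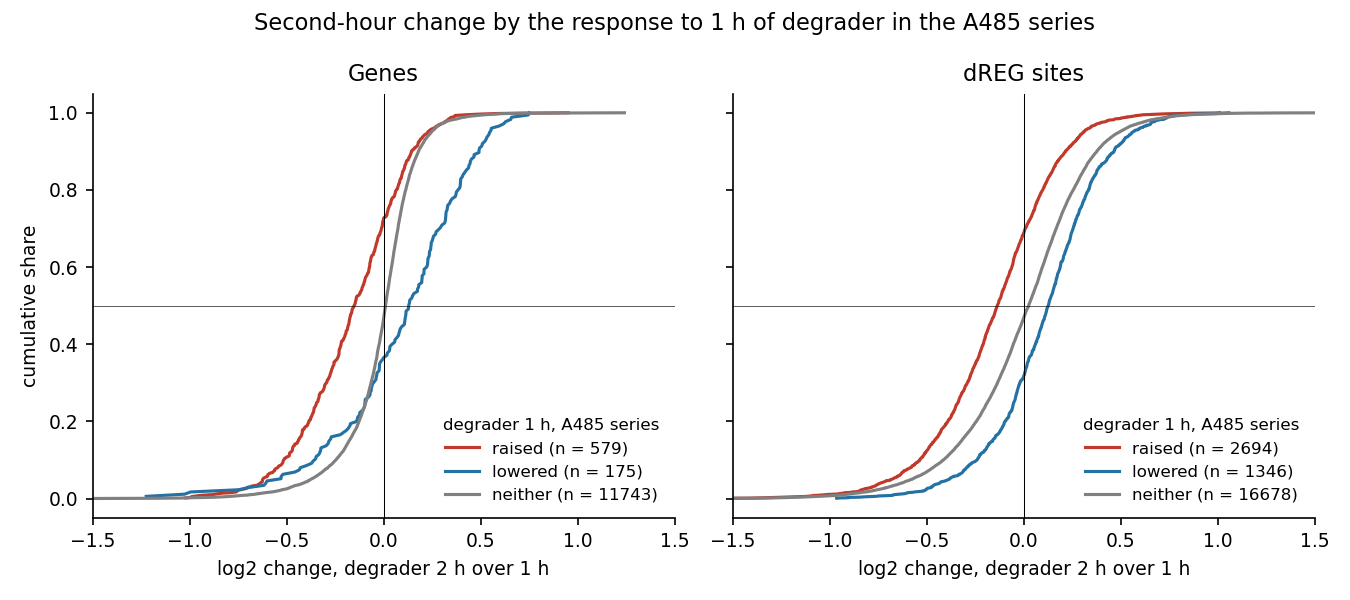
Cumulative shares of genes (left) and dREG sites (right) by their log2 difference of 2 h over 1 h, for those that 1 h of degrader raised (red), lowered (blue) or neither (grey) in the A485 series. Raised features are shifted left (medians -0.15 and -0.14) and lowered features right (0.13 and 0.13).

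The level of a gene moved with its second-hour difference. Genes with a mean of 10 to 30 counts had a median of -0.16 and those above 3000 a median of 0.04. Above 3000 counts 233 of 2376 genes were higher and 92 lower. From 1000 to 3000 counts they were 181 and 99 of 3314, and from 300 to 1000 counts 67 and 133 of 3079. Below 300 counts the calls were mostly lower, with 17 higher and 80 lower from 100 to 300. By level, the median of the raised genes beside that of all genes was -0.22 against -0.07 from 100 to 300 counts and -0.11 against -0.0031 from 300 to 1000 counts. From 1000 to 3000 counts they were -0.01 against 0.03, and above 3000 counts -0.01 against 0.04. Median levels were 3023 counts in the Myc and ribosome biogenesis list, 2438 in the cell cycle list and 1618 in the iron list. They were 1654 in the ribosomal protein genes and 799 over all genes. The part that level plays in the calls and in the shares of these lists was not tested. Gene length, known for 12710 of the tested genes from the RefSeq table of GRCm38.p6, differed between the calls too. The median length was 45.5 kb for lower genes, 24.0 kb for higher genes and 21.4 kb for all genes, and among genes over 160 kb 11.0% were lower and 3.57% higher. The 175 genes lowered in the A485 series were short, with a median of 3.10 kb.

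At dREG sites the second hour gave few calls, and the medians at degrader-responsive sites had the same signs as at genes. All 23877 sites of the time course were in the A485 series table, with positions in mm39 per the submitters' notes. Of 2694 sites raised at least 1.5-fold by 1 h of degrader in that series, 22 passed as lower and 7 as higher (0.817% and 0.26%, beside 0.356% and 0.416% of all sites), and the median was -0.14. Of 1346 lowered sites 18 passed as higher (1.34%) and 0 as lower, and the median was 0.13, beside 0.00 over all sites. In the libraries, the median raised site was at 0.55 and 0.43 over its DMSO mean at 2 h, against 0.71, 0.59 and 0.62 at 1 h. The median lowered site was at -0.23 and -0.08 at 2 h, against -0.34, -0.26 and -0.27 at 1 h. Without 2 h replicate 2 the medians were -0.07 and 0.05, and without 2 h replicate 1 the median of lowered sites was 0.21. Sites with means of 10 to 30 counts had a median of -0.07 and those of 1000 to 3000 counts 0.13.

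The sites with the smallest p on the higher side were well transcribed. The site chr5:3407841-3409140 had 541 and 583 counts at 2 h, against 303, 357 and 354 at 1 h and 476 ± 77.7 in DMSO (SD, n = 3), a difference of 0.74 ± 0.12 (SE, adjusted p = 0.00237 without the 3 libraries and 0.123 with them). A nearby site, chr5:3403721-3405050, had 1330 and 1361 at 2 h, against 915, 957 and 863 at 1 h (0.56 ± 0.10, SE, adjusted p = 0.00423). The site chr14:74908511-74910090, which degrader also raised in the A485 series (0.88 ± 0.13, SE), had 834 and 652 at 2 h, against 402, 416 and 458 at 1 h and 261 ± 26.6 in DMSO (SD, n = 3). It passed at 0.79 ± 0.12 (SE, adjusted p = 0.0012). The site chr9:40713381-40713550 had 795 and 910 at 2 h, against 304, 452 and 495 at 1 h and 810 ± 174 in DMSO (SD, n = 3), so that the 2 h values lay within the spread of DMSO and the 1 h values below it (1.06 ± 0.18, SE, adjusted p = 0.00313). The site chr2:31360161-31361060 had 2046 and 1775 at 2 h, against 1061, 1214 and 1306 at 1 h.

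On the lower side the sites with the smallest p had few reads. The site chr14:60975801-60976260 had 3.27 and 2.59 counts at 2 h, against 18.7, 21.8 and 11.0 at 1 h (-2.16 ± 0.44, SE, adjusted p = 0.0122), a few reads per 2 h library. The site chr9:100238821-100239680 had the same 2 h values, against 12.8, 17.4 and 18.8 at 1 h. The site chr4:107604441-107605810 had 58.2 and 41.4 at 2 h, against 135, 93.3 and 102 at 1 h and 54.7 ± 6.10 in DMSO (SD, n = 3), with DMSO close to 2 h (-1.13 ± 0.22, SE, adjusted p = 0.00911). The site chr1:180088911-180089640 had 51.1 and 39.7 at 2 h, against 116, 90.7 and 76.6 at 1 h and 44.4 ± 2.49 in DMSO (SD, n = 3). The site chr2:91089871-91090250 had 13.7 and 12.1 at 2 h, against 32.5, 39.3 and 41.5 at 1 h. Among sites that passed, chosen after their values were seen, chr10:11367531-11367970 was among those with many reads. It had 1836 and 2137 at 2 h, against 651, 660 and 751 at 1 h and 1287 ± 275 in DMSO (SD, n = 3), which is 1.53 ± 0.20 (SE, adjusted p = 0.000167). With the 3 libraries in the fit its limma adjusted p was 0.395. In 15 min replicate 2 it had 4643, above both 2 h values, against 912 and 1450 in the others of that group. In 30 min replicate 3 it had 693, against 889 and 1137.

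Promoter letters are shown for a pair of genes that were higher (Rpsa and Calr) and a pair that were lower (Alas2 and F2rl2), because they carry the motifs whose shares are given next. The sequences are the 250 bases before each start in RefSeq (GRCm38.p6, a build other than that of the sites), 5′ to 3′ on the gene's strand. Capitals mark matches, on either strand, to AGATAA, the letters that Gata1 and its relatives favour, to CCGGAAG for ETS factors, to CAGCTG for E-box proteins such as Tal1, or to GGGCGG for Sp and Klf factors. No printed matches overlap.
Rpsa (chr9:120127516-120127765, plus strand): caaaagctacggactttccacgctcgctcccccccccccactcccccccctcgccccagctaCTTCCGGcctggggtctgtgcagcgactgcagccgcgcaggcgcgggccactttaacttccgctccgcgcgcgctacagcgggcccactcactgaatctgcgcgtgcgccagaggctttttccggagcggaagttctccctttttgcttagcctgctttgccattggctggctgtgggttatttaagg
Calr (chr8:84846932-84847181, minus strand): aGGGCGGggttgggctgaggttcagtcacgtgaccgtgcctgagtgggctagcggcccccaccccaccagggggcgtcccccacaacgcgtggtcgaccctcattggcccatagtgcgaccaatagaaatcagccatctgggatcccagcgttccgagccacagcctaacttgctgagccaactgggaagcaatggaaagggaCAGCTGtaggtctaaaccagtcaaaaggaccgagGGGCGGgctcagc
Alas2 (chrX:150547167-150547416, plus strand): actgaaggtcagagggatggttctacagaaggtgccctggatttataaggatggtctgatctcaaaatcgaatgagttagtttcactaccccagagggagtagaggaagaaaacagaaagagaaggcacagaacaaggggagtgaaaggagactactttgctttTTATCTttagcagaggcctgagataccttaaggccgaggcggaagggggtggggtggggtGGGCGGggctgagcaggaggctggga
F2rl2 (chr13:95696670-95696919, plus strand): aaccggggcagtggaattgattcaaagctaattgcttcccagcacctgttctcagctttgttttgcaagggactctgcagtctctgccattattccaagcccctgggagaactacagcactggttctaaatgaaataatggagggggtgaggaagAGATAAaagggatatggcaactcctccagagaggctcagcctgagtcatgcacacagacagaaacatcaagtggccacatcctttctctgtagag
Rpsa has its ETS match 188 bases before the start, and the GATA matches of Alas2 and F2rl2 begin 86 and 95 bases before theirs.

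Over 13090 promoters of 10269 tested genes, 6.32% held AGATAA, 13.3% CCGGAAG, 12% CAGCTG and 55.8% GGGCGG. Over 32851 promoters in all, the shares were 9.99%, 6.91%, 13.0% and 32.7% in the same order. For 345 of the 434 lower genes with a promoter entry they were 7.81%, 9.07%, 15.4% and 48.9%, and for 401 of the 500 higher genes 3.78%, 11.9%, 10.0% and 62.2%. For ribosomal protein genes (55 of 74 matched, 66 promoters) they were 4.55%, 25.8%, 3.03% and 48.5%. For genes raised by degrader in the A485 series (450 of 579 matched) they were 11.8%, 4.27%, 16% and 45.7%. These shares describe letters in a fixed window and carry no test.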

How the data were processed

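PRO-seq libraries of MEL cells were compared as 2 libraries of degrader for 2 h against 3 of degrader for 1 h. The deposited values are signal in the form of DESeq2-normalised read counts per transcript and per dREG site, made by the authors. Per the submitters' processing notes, tools included featureCounts 2.0.1 and DESeq2 1.46.0 as well as Bowtie2 2.2.2, SAMtools 1.16.1, HOMER and bedtools, with mm39 and dm3 as builds. What each did, and the strand setting, is not given in the sources used here. In every library 100% of values came out as whole reads once divided by the value of 1 read, within 0.1 read, which gave the depths. Where a symbol had several transcripts, the highest was used. Overlapping or antisense genes and near-identical copies may share reads.

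Genes and sites averaging 10 or more entered the test on log2(value + 1) with limma 3.58.1 (R 4.3.3), all groups of the time course in 1 fit, with Benjamini-Hochberg adjustment over the whole table. Alternatives used edgeR 4.0.16 and DESeq2 1.42.0 on recovered reads, the 5 libraries alone, other pseudocounts, filters and normalisation, and each library left out. The fit without the 3 libraries was chosen from earlier results of these data, and its combinations with other settings were chosen after seeing the data. The limma and edgeR fits of all groups were tested on simulated gene counts with 200 changed genes. No simulated library stood apart, so that test does not cover the fit without the 3 libraries. Members and gene lists were chosen with earlier results of these data known. Named genes were, by rule, the 10 with the smallest p in each direction when none passed, up to 4 members per list with the smallest p, Cbfa2t3, and the 8 largest rises and 5 largest falls after 1 h of degrader in the A485 series. Sites followed the same rule with 5 per direction. List members that passed are named beside their counts, and other genes are said to be chosen after their values were seen. The gene table has 22 library names but 21 filled columns, so its washout columns may be moved by 1 place. The 3 washout columns whose group this left unsettled were not used for genes. Washout columns kept under this doubt are of the same group read either way. Some genes that the rule names are not reported here.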

Additional observations from a re-analysis of the deposited data

How the results depend on the processing

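The count of 0 genes and 0 sites held with other pseudocounts, other filters, edgeR and a replicate block, and that of 0 genes also with the lowest transcript. DESeq2 called 9 genes and 13 sites, quantile normalisation 0 genes and 2 sites, and limma on the 5 libraries alone 1867 genes and 721 sites. Leaving out single libraries gave 0 genes and 0 to 2 sites. Without the 3 libraries that stand apart there were 934 genes and 180 sites. Combined with that, in settings chosen after seeing the data, edgeR called 1226 genes and 582 sites. Leaving out 1 h replicates 1, 2 and 3 and 2 h replicates 1 and 2 in turn then gave 435, 725, 350, 361 and 183 genes and 26, 91, 102, 133 and 5 sites, with fewer samples by construction. Over the 2000 features whose deviations varied most, same-numbered libraries correlated at -0.007 and 0.00 for genes and 0.069 and 0.007 for sites. With 2 libraries at 2 h, their deviations mirror each other. These values therefore cannot show whether the replicate numbers pair the samples. The replicate block gave 0 genes and 0 sites with all libraries and 963 genes and 423 sites without the 3 libraries. The median of genes raised in the A485 series was -0.1046 under quantile normalisation and -0.18 to -0.0861 with single libraries left out.

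Signs turned only at named genes that did not pass. With single libraries left out, H1f0 ranged from -0.0734 to 0.3854, Samd7 from -0.0075 to 0.2173, H2bc22 from -0.2511 to 0.0504 (without 1 h replicate 3) and H2bc4 from -0.2473 to 0.0576, with 0.0267 without 1 h replicate 3. Cbfa2t3 was at 0 under quantile normalisation. Gm41043 was at 3e-04 with pseudocount 5, 0.1239 under quantile normalisation, 0.0103 with edgeR, 0.0121 with DESeq2, 0.0165 with edgeR without the 3 libraries, and 0.0315 and 0.1766 without 1 h replicate 1 and 2 h replicate 2. With the replicate block and without the 3 libraries, H2bc22 was at 0.0866 and H2bc4 at 0.0701. The causes were not tested. Each time rests on 2 or 3 libraries, and depth limits the lower sites with few reads.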
